A study of Mus musculus with 6 samples.

Results

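The surface genes by which blood stem and progenitor cells are sorted in the mouse were followed through 6 RNA-seq libraries. They were taken as the rows with the symbols Kit, Flt3, Cd27, Ly6a, Procr, Slamf1, Cd48 and Cd34, 8 of the 30803 rows in each library, and all 8 symbols were present once. The libraries came from wild-type mouse bone marrow at 5 months under homeostasis, and 3 were labelled MHCII-lo and 3 MHCII-hi, for cells labelled hematopoietic stem cells with low or high surface MHC class II. No treatment or engineered allele is given for either group, and the labels do not say how many animals each library holds or whether the libraries of a group came from separate animals. The p-values below are therefore set by how far the libraries of a group differ, and that spread may be technical. Which surface markers defined the sorted stem cells was not given in the sources used here.

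Hematopoietic stem cells renew all blood lineages and are enriched by surface proteins rather than by a single marker. Cells without mature lineage antigens that carry Sca-1 (Ly6a) and the kinase KIT hold the stem cells and the multipotent progenitors. Within them, long-term stem cells carry SLAMF1 and the endothelial protein C receptor (Procr) and lack CD48, while FLT3 and CD34 are gained as cells become progenitors, and CD27 is carried by most cells of this compartment.

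Ly6a, Cd27 and Flt3 were higher in MHCII-hi than in MHCII-lo, by 3.05, 1.93 and 1.51 times in mean FPKM (fragments per kilobase, a level corrected for transcript length and for library size). Cd48 was lower, at 0.771 times its MHCII-lo level. Kit overlapped between the groups, with means of 10.9 FPKM in MHCII-lo and 0.996 times that in MHCII-hi, and Cd34 was 5.98% higher without passing the test on the deposited scale. Procr and Slamf1 were the lowest of the 8 in both groups, under 1 FPKM in every library, and every MHCII-hi library lay above every MHCII-lo library for both. Of the 6 genes whose mean reached 1 FPKM and which could be tested, 3 rose, 1 fell and 2 did not pass (limma, Benjamini-Hochberg adjusted p under 0.05). Over all 12295 tested genes 67.8% were called, 27.2% as higher and 40.5% as lower, so a share of 4 in 6 is near the background and a call alone sets none of these genes apart. The sizes are therefore given first. The median log2 change was 0.31 over the 6 fitted genes and -0.08 over all tested genes.

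**Figure D1:**
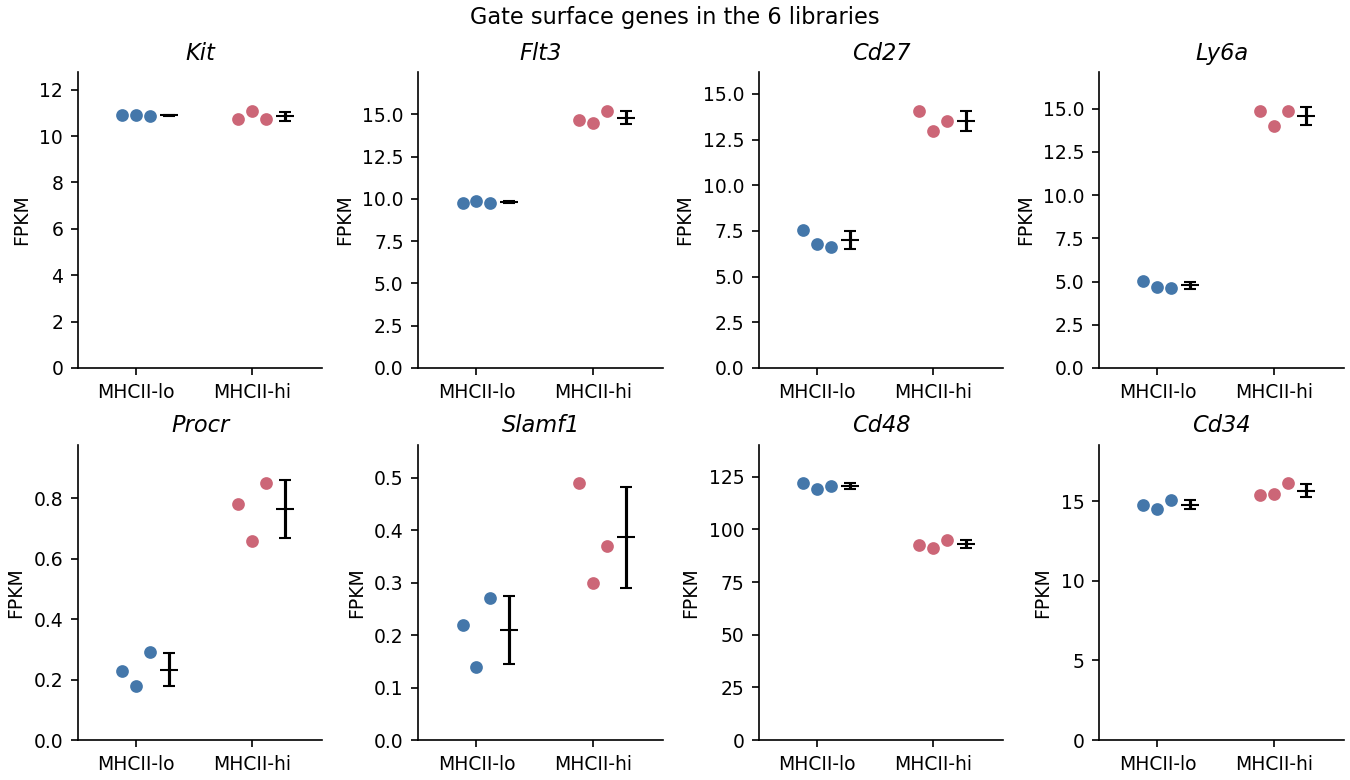
FPKM of the 8 gate genes (y axes, each from 0) in the 3 MHCII-lo and 3 MHCII-hi libraries (points), with the mean and SD of each group beside them. Kit overlaps between the groups near 11 FPKM, Cd48 lies lower in MHCII-hi, and the other 6 genes lie higher there.

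The libraries of a group were close to each other. Their FPKM summed to between 305934 and 306945 in MHCII-lo and between 333347 and 333530 in MHCII-hi, and Pearson's r of log2(FPKM + 1) across tested genes (genes are no independent replicates) was 0.990 to 0.994 within a group and 0.905 to 0.910 across groups. For the 4376 tested genes that averaged 10 to 100 FPKM, the median coefficient of variation between libraries came to 2.65% for MHCII-lo and 3.34% for MHCII-hi. Read depth is unknown, so no counting interval is given. All 6 are bulk libraries, in which fewer cells of a type and less RNA per cell cannot be told apart.

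The label was set against marker genes. Of 20 genes listed for long-term stem cells, 11 had a mean under 1 FPKM over the 6 libraries, Slamf1 and Procr among them, and the 20 summed to 39.8 to 40.9 FPKM in MHCII-lo and 76.9 to 77.8 FPKM in MHCII-hi. Of the 9 tested, 6 rose, among them Gata2, a stem cell transcription factor, and none fell. Some of the 6 averaged under 1 FPKM in MHCII-lo, so that only a rise could be called for them. Neutrophil genes were far more abundant, with 10 markers summing to 13806 to 13825 FPKM in MHCII-lo and 20853 to 21136 FPKM in MHCII-hi. The 10 granulocyte and monocyte progenitor genes summed to 4391 to 4476 and 3182 to 3219 FPKM. These sums are of different genes and do not give shares of cells. All 17 lineage antigen genes on the list, whose proteins are used to exclude mature cells from stem cell gates, had a mean of at least 1 FPKM, and 11 rose, 4 fell and 2 did not pass. High Cd48 with low Slamf1 and Procr also goes against the RNA pattern of a long-term stem cell population, so the cells are called here by their MHCII label.

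The regions just before the transcription starts are shown for the 3 called genes with an entry in the RefSeq promoter table and for Slamf1, the neighbour of Cd48 on chromosome 1. The table (GRCm38.p6) matched 7 of the 8 genes, all but Ly6a. Each line gives the 250 bases before the start, 5′ to 3′ on the gene's strand, and capitals mark CANNTG, the letters of an E-box. The intervals are chr5:147400490-147400739 (minus strand) for Flt3, chr6:125237028-125237277 (minus) for Cd27, chr1:171681742-171681991 (plus) for Cd48 and chr1:171766882-171767131 (plus) for Slamf1.
Flt3: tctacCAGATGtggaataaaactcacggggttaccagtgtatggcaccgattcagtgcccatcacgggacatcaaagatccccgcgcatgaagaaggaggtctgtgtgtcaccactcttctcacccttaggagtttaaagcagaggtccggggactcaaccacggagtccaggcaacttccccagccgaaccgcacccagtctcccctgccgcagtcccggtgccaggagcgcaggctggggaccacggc
Cd27: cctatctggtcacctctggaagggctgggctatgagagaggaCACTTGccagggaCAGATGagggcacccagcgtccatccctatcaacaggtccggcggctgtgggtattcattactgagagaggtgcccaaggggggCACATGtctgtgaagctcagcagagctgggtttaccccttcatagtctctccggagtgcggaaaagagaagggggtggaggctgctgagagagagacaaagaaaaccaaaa
Cd48: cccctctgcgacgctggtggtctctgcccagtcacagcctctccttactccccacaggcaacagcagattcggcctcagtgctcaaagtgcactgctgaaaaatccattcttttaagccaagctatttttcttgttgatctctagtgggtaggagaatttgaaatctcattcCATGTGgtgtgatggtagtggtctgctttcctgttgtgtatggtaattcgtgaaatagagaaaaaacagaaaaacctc
Slamf1: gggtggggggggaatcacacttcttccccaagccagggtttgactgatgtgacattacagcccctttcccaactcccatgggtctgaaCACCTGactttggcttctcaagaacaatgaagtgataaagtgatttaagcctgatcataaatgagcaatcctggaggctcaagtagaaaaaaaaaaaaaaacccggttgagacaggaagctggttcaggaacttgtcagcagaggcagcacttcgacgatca
CANNTG, which reads the same on both strands, occurred 3 times before Cd27, at 208, 195 and 111 bases, and once each before Flt3, Cd48 and Slamf1, at 245, 78 and 162 bases. Of the 7 genes 5 had it, against 66.2% of the 32851 windows of this length in the table. AGGAAG, one form of the core bound by ETS factors, was searched on both strands and occurred before Slamf1, Kit and Cd34, 3 of 7 against 29.5% of all windows. TGTGGT, one form of the RUNX core, occurred before Cd48 alone, where it overlaps the CANNTG match, 1 of 7 against 14.0%. For the blood factors of the GATA family only the letters AGATAA were searched, and these occurred in 0 of the 7, against 9.99%, while other forms of their core were not searched. TTCNNNGAA was also searched and occurred in 0 of the 7, against 7.02%. These are matches of letters and not measured binding sites.

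Kit encodes the receptor of stem cell factor, a receptor tyrosine kinase on which stem cells, progenitors and mast cells depend. The gene (ENSMUSG00000005672.12, protein-coding) lies on the plus strand at chr5:75574916-75656722 of GRCm38. Its level was 10.9, 10.92 and 10.86 FPKM in the MHCII-lo libraries and 10.74, 11.09 and 10.72 FPKM in the MHCII-hi libraries. The highest and the 2 lowest values were all in MHCII-hi, and the groups overlapped. The difference in log2(FPKM + 1) was -0.01 ± 0.03 (SE), with a 95% confidence interval of -0.08 to 0.07, or 0.949 to 1.05 times (limma adjusted p = 0.880). Its sign is not settled: with median-of-ratios scaling, which raises all MHCII-hi values against MHCII-lo, Kit was higher by 0.08 (limma adjusted p = 0.0466), and the sign also turned with quantile normalization, with a correction for length and GC content, and without MHCII-hi replicate 1 or 3.

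Flt3 encodes the other type III receptor kinase of the set, which marks multipotent and lymphoid-primed progenitors and dendritic cell precursors. It lies on the minus strand at chr5:147330741-147400489. Flt3 measured 9.75, 9.87 and 9.78 FPKM in MHCII-lo and 14.69, 14.46 and 15.21 FPKM in MHCII-hi. The groups stood apart, and the means of 9.80 ± 0.0625 and 14.8 ± 0.384 FPKM (SD, n = 3) were many SDs apart. The log2 change was 0.55 ± 0.03 (SE, limma adjusted p = 8.70e-06), larger in size than that of 79.4% of tested genes. Measured against Kit in the same library, Flt3 was 0.900 ± 0.00474 times Kit in MHCII-lo and 1.36 ± 0.0576 times Kit in MHCII-hi (SD, n = 3).

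Cd27, a TNF receptor family member that binds CD70 and signals through TRAF adaptors, lies on the minus strand at chr6:125232622-125237010. Its level was 7.55, 6.78 and 6.64 FPKM in MHCII-lo and 14.07, 12.98 and 13.5 FPKM in MHCII-hi. Here too the lowest MHCII-hi library was well above the highest MHCII-lo library. The log2 change was 0.86 ± 0.05 (SE, limma adjusted p = 1.39e-05), larger in size than that of 92.4% of tested genes. Cd27 went from 0.642 ± 0.0444 to 1.25 ± 0.0707 times Kit (SD, n = 3).

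Ly6a encodes Sca-1, a small GPI-anchored protein that is also induced by interferon and carried by endothelial cells and lymphocytes. The gene lies on the minus strand at chr15:74994877-74998031 within a cluster of related genes. Ly6a measured 5.02, 4.71 and 4.61 FPKM in MHCII-lo and 14.88, 13.98 and 14.87 FPKM in MHCII-hi, where every library was far above the MHCII-lo range. It had the largest log2 change of the 6 fitted genes, 1.43 ± 0.04 (SE, limma adjusted p = 5.54e-07), and 97.5% of tested genes changed less. From the sixth position among the 8 in MHCII-lo it reached the range of Flt3 and Cd27 in MHCII-hi, and its ratio to Kit went from 0.439 ± 0.0192 to 1.34 ± 0.0726 (SD, n = 3).

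Reads of Ly6a can be shared with its relatives. Of the 1297 distinct 50-base stretches in its annotated transcripts, 246 (19.0%) also occur in transcripts of another gene, 242 of them in Ly6c1, and how such reads were assigned was not given in the sources used here. Ly6c1, which was singled out after its values were seen, averaged 51.5 ± 12.9 FPKM in the MHCII-lo and 52.3 ± 9.49 FPKM in the MHCII-hi libraries (SD, n = 3), and its groups overlapped (limma adjusted p = 0.890, not called). The share was under 4% for each of the other 7 genes. Genes annotated over the same bases were Vamp1 for Cd27, Gm26597 for Flt3, Gm16897 for Cd34, all on the opposite strand, and on the same strand Mir8113 for Cd27 and Gm37010 for Cd48. The kit marks strand, per the labels, but whether the counting used it was not given in the sources used here.

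**Figure D2:**
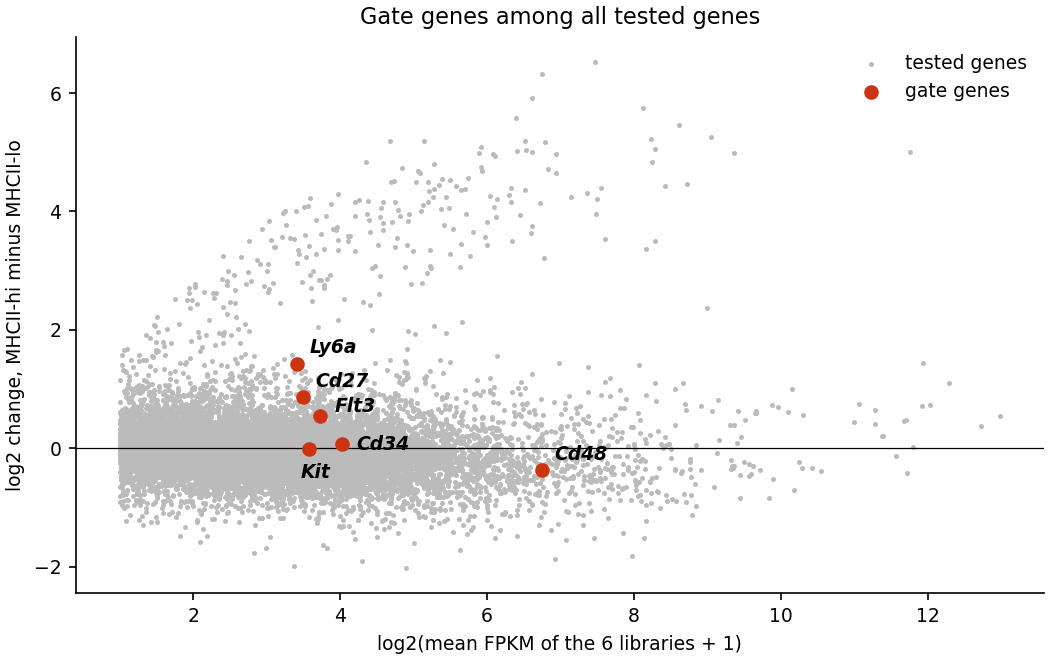
Log2 change between the groups (y axis) against log2 of the mean FPKM + 1 over the 6 libraries (x axis) for the 12295 tested genes (grey) and the 6 fitted gate genes (red). Ly6a, Cd27 and Flt3 lie above 0, Kit and Cd34 near 0, and Cd48 lies below 0 at the highest level of the 6.

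Procr encodes the endothelial protein C receptor, which binds activated protein C and marks long-term stem cells as well as endothelium. It lies on the plus strand at chr2:155751117-155755471. Procr measured 0.23, 0.18 and 0.29 FPKM in MHCII-lo and 0.78, 0.66 and 0.85 FPKM in MHCII-hi, with every MHCII-hi library above every MHCII-lo library. The mean went from 0.233 ± 0.0551 to 0.763 ± 0.0961 FPKM (SD, n = 3), which is 3.27 times, with both means under the minimum for the fit. An exact permutation test, two-sided, gave p = 0.1, the smallest that 3 against 3 libraries allow. When the fit was widened to all genes averaging 0.1 FPKM or more, Procr passed with a log2 change of 0.52 (limma adjusted p = 0.00118), and it passed without a filter at an adjusted p of 0.00182.

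Slamf1 and Cd48 belong to the SLAM family of immune receptors and lie on the plus strand of chromosome 1, Cd48 at chr1:171682009-171705258 and Slamf1 at chr1:171767127-171801184. The gap between them is 61868 bases and holds 5 annotated genes. Slamf1 measured 0.22, 0.14 and 0.27 FPKM in MHCII-lo and 0.49, 0.3 and 0.37 FPKM in MHCII-hi. The groups did not overlap, but their nearest libraries were close together. The exact permutation test gave p = 0.1, two-sided, the smallest 3 against 3 can give. In the fit widened to 0.1 FPKM the log2 change of 0.20 did not pass (limma adjusted p = 0.0876), nor did it without a filter (adjusted p = 0.0868).

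Cd48 is a GPI-anchored ligand of CD2 and CD244 found on most blood cells, and its absence from the surface is used to select long-term stem cells. It was by far the most abundant of the 8, above 97.2% of tested genes in MHCII-lo and 96.3% in MHCII-hi. Its level was 122, 119 and 121 FPKM in MHCII-lo and 92.7, 91.4 and 95.1 FPKM in MHCII-hi, so that all MHCII-hi libraries lay below all MHCII-lo libraries. The log2 change was -0.37 ± 0.02 (SE, limma adjusted p = 8.19e-06). Corrected for length and GC content it was much smaller, -0.09 (limma adjusted p = 0.00806), and with median-of-ratios scaling it was -0.28. Cd48 has a short transcript of 1186 bases at 42.0% GC.

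The RNA balance of the 2 SLAM genes, whose proteins are used to select long-term stem cells, differed between the groups. Cd48 was 554, 852 and 447 times Slamf1 in the MHCII-lo libraries and 189, 305 and 257 times in the MHCII-hi libraries. The ratio was lower in every MHCII-hi library but spread widely in both groups. The coefficient of variation in MHCII-lo and MHCII-hi was 31.2% and 24.9% for Slamf1, against 1.09% and 2.03% for Cd48. The cause of the spread of Slamf1, which is near the bottom of the range, was not tested. Cd48 against Kit, both well measured, went from 11.1 ± 0.135 to 8.58 ± 0.320 (SD, n = 3), again without overlap. The exact permutation test of each ratio gave p = 0.1, the smallest it can give here.

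**Figure D3:**
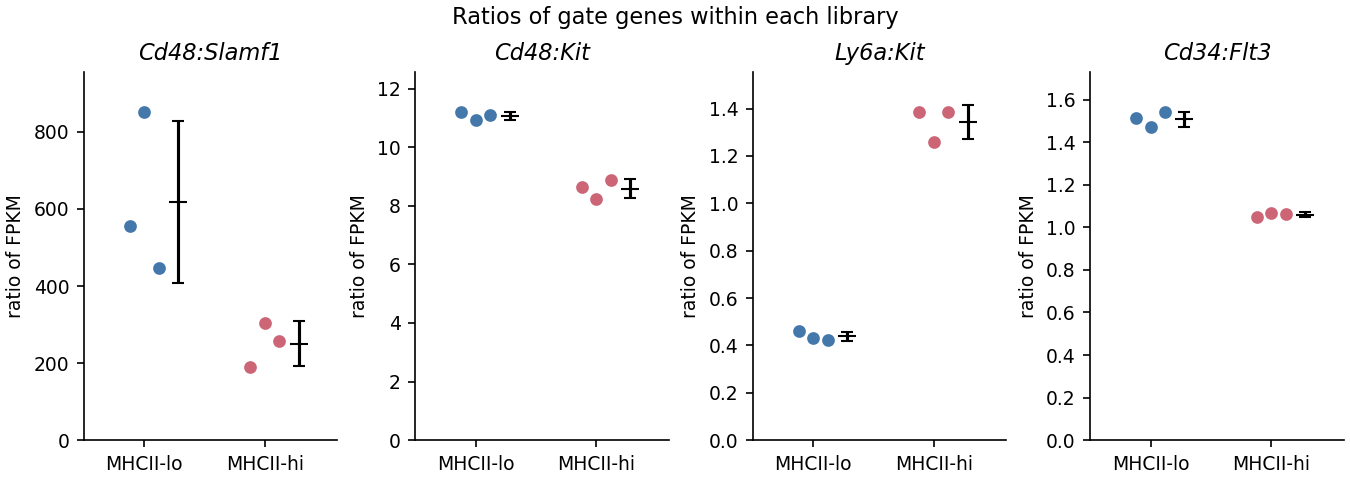
Ratios of FPKM between pairs of gate genes within each library (points; y axes from 0), with the group mean and SD. Cd48:Slamf1, Cd48:Kit and Cd34:Flt3 are lower in every MHCII-hi library and Ly6a:Kit is higher in every one.

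Cd34 encodes a sialomucin of progenitors and endothelium that binds L-selectin, and lies on the plus strand at chr1:194938819-194961279. Its level was 14.75, 14.5 and 15.06 FPKM in MHCII-lo and 15.38, 15.45 and 16.13 FPKM in MHCII-hi. The groups did not overlap, yet the means, 14.8 ± 0.281 and 15.7 ± 0.414 FPKM (SD, n = 3), were close. The log2 change of 0.08 ± 0.03 (SE) had an unadjusted 95% confidence interval of 0.0029 to 0.15 and did not pass (limma adjusted p = 0.0631). It passed under 3 other scalings, with a log2 change of 0.13 after quantile normalization (adjusted p = 0.0132), 0.17 with median-of-ratios scaling (0.00311) and 0.21 with the length and GC trend removed (0.00105). Measured against Flt3 in the same library, Cd34 went from 1.51 ± 0.0357 to 1.06 ± 0.0109 times Flt3 (SD, n = 3).

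**Figure D4:**
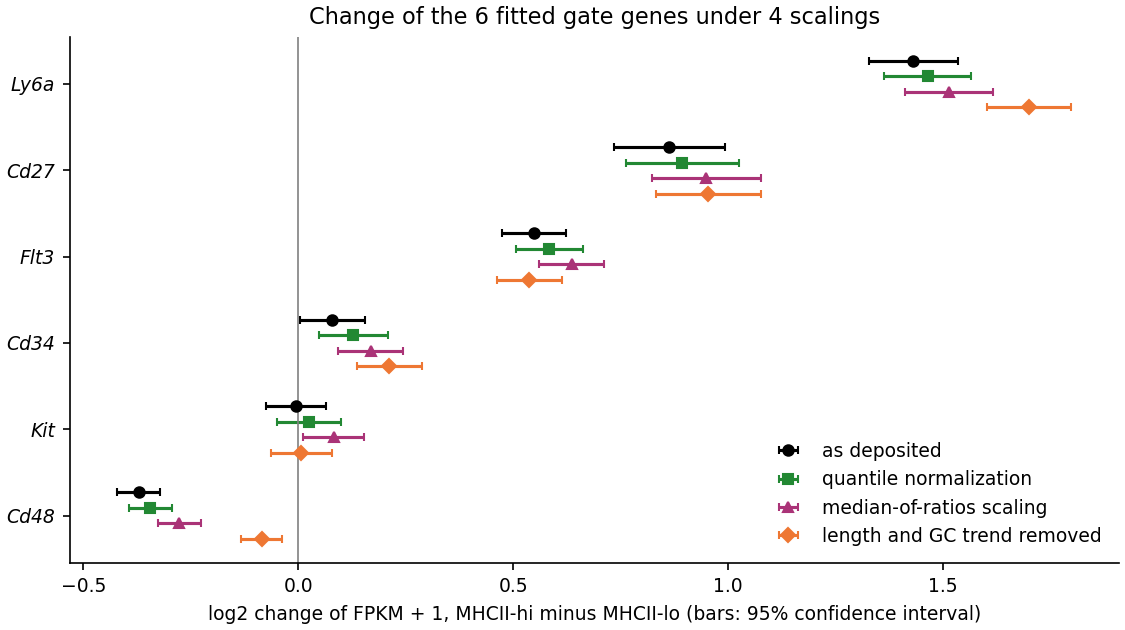
Log2 change of FPKM + 1 between MHCII-hi and MHCII-lo (x axis, points, with 95% confidence intervals) for the 6 fitted gate genes (rows) under 4 scalings. Ly6a, Cd27 and Flt3 stay well above 0 under all 4, Cd48 stays below 0 but approaches it, Kit lies close to 0, and Cd34 goes from 0.08 as deposited to 0.21 with the length and GC trend removed.

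The order of levels changed between the groups. In MHCII-lo it ran Cd48, Cd34, Kit, Flt3, Cd27, Ly6a, Procr and Slamf1, and of the neighbours only Procr and Slamf1 overlapped in their range over libraries. In MHCII-hi it ran Cd48, Cd34, Flt3, Ly6a, Cd27, Kit, Procr and Slamf1. There the ranges of Flt3 and Ly6a overlapped, as did those of Ly6a and Cd27. Of the 6 tested genes 5 had groups that did not overlap, against 72.8% of all tested genes, 29.6% being higher and 43.3% lower. With Procr and Slamf1, which were below the minimum and so outside that background, 7 of the 8 did not overlap, 6 higher and 1 lower in MHCII-hi. Cd48 made up 71.7% of the summed FPKM of the 8 genes in MHCII-lo but 56.9% in MHCII-hi.

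The genes closest in profile were sought among 10780 other tested genes, by the Euclidean distance between log2(FPKM + 1) values centred on each gene's mean over the 6 libraries. Cbl, a ubiquitin ligase that downregulates KIT, and Ctdsp2 were closest to Kit, both at a distance of 0.0211. Ankrd11 (0.0361) and Stk10 (0.0363) were closest to Flt3. Cd27 was closest to Hivep2 (0.0618) and to the recombinase gene Rag2 (0.0897), and Ly6a to the granule gene Ngp (0.0930) and to Adam8 (0.105). The glycolytic gene Eno1 (0.0228) and the receptor gene Csf1r (0.0291) were closest to Cd48, and Mfsd2b (0.0351) and Unc93b1 (0.0352) to Cd34. The likeness covers 6 libraries that form only 2 groups.

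Ligands and binding partners were read from a list of 12 genes in the files. Kitl, the ligand of KIT, was near the bottom of the range at 0.11, 0.13 and 0.12 FPKM in MHCII-lo and 0.08, 0.2 and 0.24 FPKM in MHCII-hi, and Cd70, the ligand of CD27, was listed at 0 in all 6 libraries. Flt3l, the ligand of FLT3, rose from 2.94 ± 0.143 to 5.18 ± 0.399 FPKM (SD, n = 3, limma adjusted p = 1.00e-04). Both partners of CD48 rose while Cd48 fell: Cd2 was 2.18 times higher, at 6.31 ± 0.203 and 13.8 ± 0.770 FPKM, and Cd244a was 1.39 times higher, at 4.35 ± 0.118 and 6.04 ± 0.585 FPKM. F2r, the thrombin receptor that acts with the protein C receptor, rose 1.81 times. Thbd, thrombomodulin, fell from 4.91 ± 0.118 to 4.04 ± 0.404 FPKM (limma adjusted p = 0.0173), a call that was lost with median-of-ratios scaling (adjusted p = 0.0737) and without MHCII-lo replicate 1 (0.0531) or 3 (0.0513). In all, 5 of the 7 tested genes of this list rose, 1 fell and 1 did not pass.

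Each receptor was also set beside its family. Of the type III receptor kinases, Csf1r, the macrophage growth factor receptor, fell from 55.1 ± 0.222 to 42.3 ± 0.644 FPKM while Flt3 rose, Pdgfrb rose from 1.33 ± 0.234 to 2.50 ± 0.150 FPKM, and Pdgfra was below 0.1 FPKM in all libraries. In the SLAM family and its adaptors, 7 of 9 tested genes rose, and Cd48 was the 1 that fell, also under the 4 other scalings. Slamf7, a receptor abundant on plasma cells, rose from 1.81 ± 0.135 to 8.68 ± 0.356 FPKM and Slamf9 rose 4.39 times. In the Ly6 family, 5 of 9 tested genes rose and 1 fell, namely Ly6c2, a monocyte antigen, which went from 459 ± 13.4 to 341 ± 2.94 FPKM. Ly6d, which marks B lineage progenitors, rose 4.04 times, from 16.9 ± 0.602 to 68.2 ± 1.97 FPKM.

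Other sialomucins moved both ways. Selplg, the main P-selectin ligand, rose from 69.5 ± 1.18 to 93.4 ± 1.48 FPKM, and Spn, which encodes CD43, fell from 69.7 ± 1.21 to 61.98 ± 0.448 FPKM. Cd164 averaged 70.7 ± 2.01 FPKM in the MHCII-lo and 67.4 ± 1.95 FPKM in the MHCII-hi libraries and missed the threshold (limma adjusted p = 0.0911, but 0.0373 without MHCII-hi replicate 2). The relatives Podxl and Podxl2 were below 0.2 FPKM in every library.

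The signalling genes downstream of KIT and FLT3 did not share a direction. Of 24 tested, 6 rose, 9 fell and 9 did not pass, with a median log2 change of 0.01, and median-of-ratios scaling turned this split to 11 higher and 4 lower. Over all tested genes the same scaling gave 4090 higher and 4001 lower calls, against 3348 and 4982 on the deposited scale. Fyn, a Src family kinase, rose 1.55 times and Mapk3, which encodes ERK1, 1.46 times. The adaptor gene Crk fell to 0.707 times and the phosphatase gene Ptpn11 to 0.737 times its MHCII-lo level.

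Negative regulators of these kinases were mostly higher. Of 15 tested, 12 rose, 2 fell and 1 did not pass, with a median log2 change of 0.29 against -0.08 over all tested genes, and 12 or 13 rose under each of the 4 other scalings. Dok2, an adaptor that restrains Ras signalling, rose from 6.17 ± 0.293 to 10.7 ± 0.876 FPKM, and Socs3, a suppressor of cytokine signalling, from 7.46 ± 0.484 to 12.5 ± 0.380 FPKM. Dok1 and Spred1, with like roles, fell to 0.716 and 0.743 times. Cbl averaged 29.5 FPKM in both groups.

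Of 10 genes downstream of CD27, 5 rose, 3 fell and 2 did not pass. Relb, an NF-kB subunit, and Map3k14, which encodes the NF-kB inducing kinase, rose 1.79 and 1.53 times. Siva1, whose product binds the tail of CD27, fell from 10.4 ± 0.951 to 5.04 ± 0.523 FPKM, and Chuk, an IkB kinase gene, fell to 0.764 times.

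**Figure D5:**
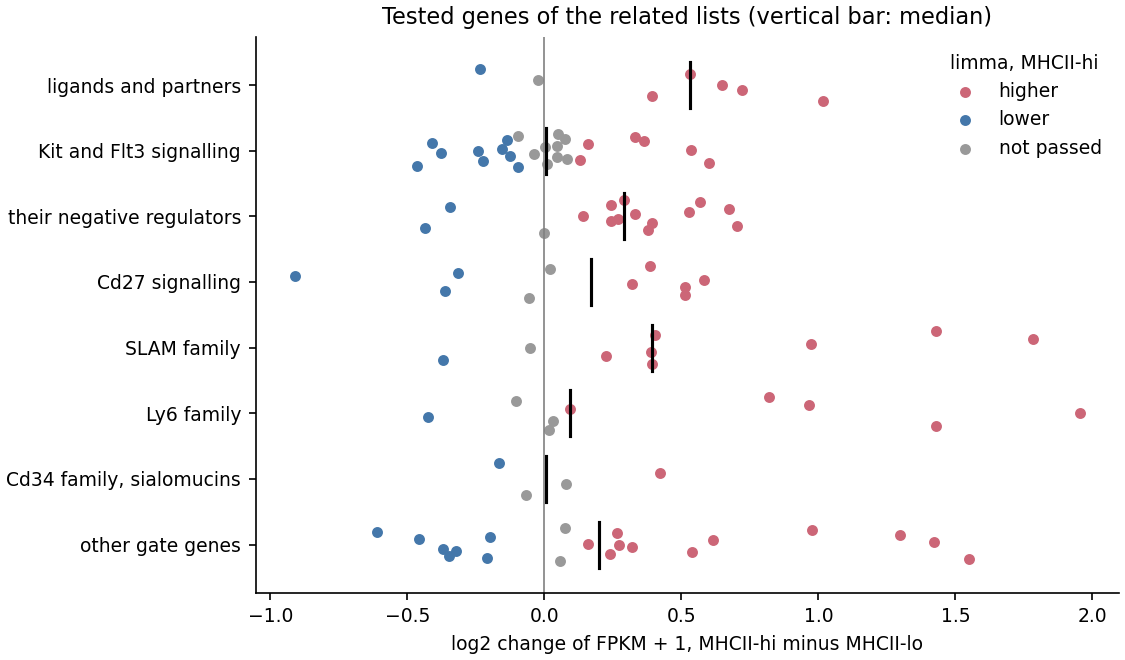
Log2 change of FPKM + 1 (x axis) of each tested gene (points, coloured by its limma call) in 8 related gene lists (rows), with the median of each list as a black bar. The SLAM family has 7 higher and 1 lower, and the signalling genes of KIT and FLT3 lie on both sides of 0.

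Of 20 tested genes among 26 others used in stem and progenitor gates, 11 rose, 7 fell and 2 did not pass, with a median log2 change of 0.20. Cd38, an ectoenzyme of stem cells and B cells, went from 0.38 ± 0.01 to 3.07 ± 0.621 FPKM, and Il7r, the interleukin receptor of lymphoid progenitors, from 3.79 ± 0.488 to 11.8 ± 0.966 FPKM. Tfrc, the transferrin receptor of dividing and erythroid cells, fell from 52.7 ± 0.429 to 34.2 ± 0.613 FPKM and Itga5, a fibronectin receptor chain, from 8.76 ± 0.278 to 6.11 ± 0.345 FPKM (SD, n = 3).

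Markers of other cell types differed between the same groups. All 12 tested genes of the 14 B cell markers rose, with a summed level of 33.2 to 36.7 FPKM in MHCII-lo and 229 to 234 FPKM in MHCII-hi. All 8 plasma cell markers rose, from 77.3 to 80.9 up to 454 to 460 FPKM. Some genes of both lists, Ms4a1 among them, averaged under 1 FPKM in MHCII-lo and were tested only through their MHCII-hi level. Their direction was thus set by the minimum, and the counts are to be read with the sums. Immunoglobulin segments took 0.392% to 0.458% of the summed FPKM in MHCII-lo and 8.26% to 8.34% in MHCII-hi. Of 10 neutrophil markers 9 rose (8 with quantile normalization, where 1 fell), of 10 granulocyte and monocyte progenitor genes 8 fell and 1, the transcription factor gene Cebpe, rose, and of 10 erythroid markers 9 fell. Among 11 T and NK cell markers 6 rose and 3 fell, with sums of 231 to 236 and 227 to 238 FPKM, and among 11 tested dendritic cell and macrophage markers 8 rose and 3 fell, with sums of 168 to 170 and 191 to 195 FPKM. That last list holds Flt3 itself.

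Of 12 endothelial markers, which include Procr, Cd34 and Ly6a, 4 were tested, and Pecam1 and Ly6a rose. The endothelial genes Cdh5 and Kdr measured 0.577 ± 0.0643 and 0.04 ± 0.0173 FPKM in MHCII-lo and 1.29 ± 0.238 and 0.183 ± 0.0451 FPKM in MHCII-hi (SD, n = 3). No marker of these cell type lists was at 0 in all 6 libraries. Several of the gate genes are carried by these cells as well, Cd27, Cd48 and Ly6a by lymphocytes and Procr and Cd34 by endothelium. The part of such cells in the differences of the gate genes was not tested. With the immunoglobulin segments removed and each library rescaled to the same sum, the 6 fitted genes kept their calls, with log2 changes of 1.43 for Ly6a, 0.86 for Cd27, 0.55 for Flt3 and -0.37 for Cd48. The step hardly moved any of them, Kit from -0.0054 to -0.0077 and Ly6a from 1.430 to 1.428. It takes out only the segments and leaves the other RNA of such cells in place, so it does not test their part.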

How the data were processed

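Messenger RNA libraries were made from sorted cells with a stranded kit, per the labels' protocols. Per the submitters' processing notes, the tools were fastp, HISAT2 and StringTie, without versions, and the builds named are GRCm38 and mm10. The deposited values hold 2 decimals and no stated unit, and were read as FPKM, scaled by the authors to transcript length and library size. FPKM is a share of the library, so a rise of abundant transcripts lowers all others. Low values rounded to 2 decimals did not give whole reads.

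Genes averaging 1 FPKM or more were tested on log2(FPKM + 1) in limma 3.58.1 under R 4.3.3 (mean-variance trend, two-sided, Benjamini-Hochberg over 12295 genes, threshold 0.05). The minimum was set on the mean over the 6 libraries. A gene whose mean was under it in 1 group could thus only be called higher in the other group. Fold changes given as times are ratios of mean FPKM, and the log2 scale understates changes of low genes. The fit was tested on simulated data. For 67 repeated symbols, values are those of the most abundant row. Gene coordinates and transcripts came from GENCODE M21. The genes and lists were chosen with earlier results of these data known. Named genes are the 8 members, the ligands, the 2 largest changes per list and direction (all genes of lists with at most 5 tested) and the 2 nearest profiles per fitted member. Ly6c1 was added after its values were seen, and 1 gene that the rule selects is not reported here. Kit has 2 starts in the promoter table, of which the first was used. Figures were drawn with matplotlib 3.10.9.

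Same-numbered libraries of the groups were checked for pairing, and 13 alternative settings and the removal of each library were tried.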

Additional observations from a re-analysis of the deposited data

How the results depend on the processing

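Flt3, Cd27 and Ly6a kept their direction and their call under all 19 alternatives, and so did Cd48, with log2 changes of 0.53 to 0.64, 0.83 to 0.95, 1.41 to 1.70 and -0.39 to -0.09. Kit took a positive sign with quantile normalization (0.024), median-of-ratios scaling (0.082, the 1 setting in which it passed) and the length and GC trend removed (0.0072, with or without the replicate block), and lay between -0.020 and 0.0025 with 1 library left out. Cd34 passed at 0.13 with quantile normalization, 0.17 with median-of-ratios scaling and 0.21 with the length and GC trend removed, with or without the replicate block, and lay between 0.06 and 0.09 with 1 library left out. Procr passed in limma at 0.52 without a filter and at a mean of at least 0.1 FPKM. With median-of-ratios scaling 5 gate genes were called higher in place of 3. At a mean of at least 5 FPKM, where fewer genes are tested, 2210 of all genes were called higher in place of 3348. The cause of the moves of Kit, Cd34 and Procr was not tested. Same-numbered libraries hardly deviated together (r of 0.06, 0.0019 and 0.08 across genes), against -0.095 to 0.025 for differently numbered libraries. Replicates 1 and 3 of either group correlated best with their own number, and replicate 2 of either group did not. As all these r were small, the numbers were not taken to pair the samples, but a pairing of some libraries was not excluded. With the replicate number as a block 3222 genes were called higher and 4809 lower, and the calls of the gate genes were the same. Read depth is unknown, which limits the precision of Procr and Slamf1 most.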
